A study of Mus musculus with 36 samples.

Results

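The 8 genes described here make, break down or sense prostaglandins, and were followed through 36 RNA-seq libraries of mouse intestinal organoids. They were listed by symbol (Ptgs1, Ptgs2, Ptges, Ptges2, Ptges3, Hpgds, Hpgd and Ptger4), and the rule used no measured value, although earlier results of these data were known when the genes were listed. All 8 were found among the 52636 genes of the count files. A gene counted as detected at a mean of 0.5 CPM (read counts scaled to a common library total) or more over the 36 libraries, which 7 of the 8 reached. The same 7 were among the 15497 genes with enough counts to be tested.

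The organoids were epithelial cultures grown from jejunal crypts of 6 C57BL/6 mice, and crypts freshly passaged from them received 1 of 6 treatments, with 6 libraries each. Complete media + IgG was the commercial organoid medium with a control antibody. QCM + IgG and SCM + IgG added conditioned medium of mouse embryonic fibroblasts that were quiescent (serum deprived) or senescent, and Wnt5a + IgG added the noncanonical Wnt ligand Wnt5a to complete media. SCM + anti-Ptk7 and Wnt5a + anti-Ptk7 carried an antibody against Ptk7, a Wnt co-receptor with a shed extracellular domain, in place of IgG, so every culture held an antibody and no group was left without one. Which libraries came from which mouse, the sex and age of the mice, and whether X-rays or doxorubicin made the fibroblasts of these media senescent are not given in the sources used here.

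Prostaglandins are short-lived lipid signals. The cyclooxygenases Ptgs1 and Ptgs2 turn arachidonic acid, which phospholipases A2 release from membranes, into prostaglandin H2, and terminal synthases convert that into prostaglandin E2, D2 and others. In the gut, prostaglandin E2 acts largely through the receptor Ptger4, which raises cyclic AMP, and Hpgd ends the signal. Prostaglandin E2 is known to turn budding intestinal organoids into cysts, which is why these genes were read across the media. The study sequenced these cultures after a shorter treatment than the one after which it counted cysts.

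Library totals ran from 9581589 to 21029769 counts with a median of 13490071, and the scaling factors of the trimmed mean of M values (TMM) from 0.908 to 1.03. The cultures had the markers of intestinal epithelium, since the group means of Epcam ran from 1881 to 2959 CPM and those of Vil1 from 626 to 909 CPM. Among 9 fibroblast markers, Col3a1 and Dcn had 0 counts in all 36 libraries and 7 averaged under 0.5 CPM. Fbln1, at group means from 116 to 163 CPM, made up nearly all of that list's sum. Among 9 mast cell and leukocyte markers, Cpa3 and Fcer1a were at 0 throughout, 7 averaged under 0.5 CPM, and Csf1r, at 11.9 to 15.8 CPM, made up most of the sum. Since these are bulk libraries, fewer cells of a type and less RNA per cell cannot be told apart, and the p-values below measure the spread between libraries of a group.

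The members differed widely in abundance. Per kilobase of coding sequence and averaged over the 36 libraries, Ptges3 had 123 CPM, Ptges2 83.3, Hpgd 46.4, Ptger4 19.4, Ptgs2 8.64, Hpgds 2.34, Ptgs1 0.983 and Ptges 0.335. These means pool treatments that differ. Ptgs2 per kilobase was 1.85 CPM in complete media + IgG and 21.7 CPM in Wnt5a + IgG, where it was close to Ptger4 at 21.1 CPM, while Ptges3 was at 124 and 127 CPM in the same groups. A processed pseudogene of Ptges3 exists, so a part of the reads of that gene could be shared with it.

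**Figure D1:**
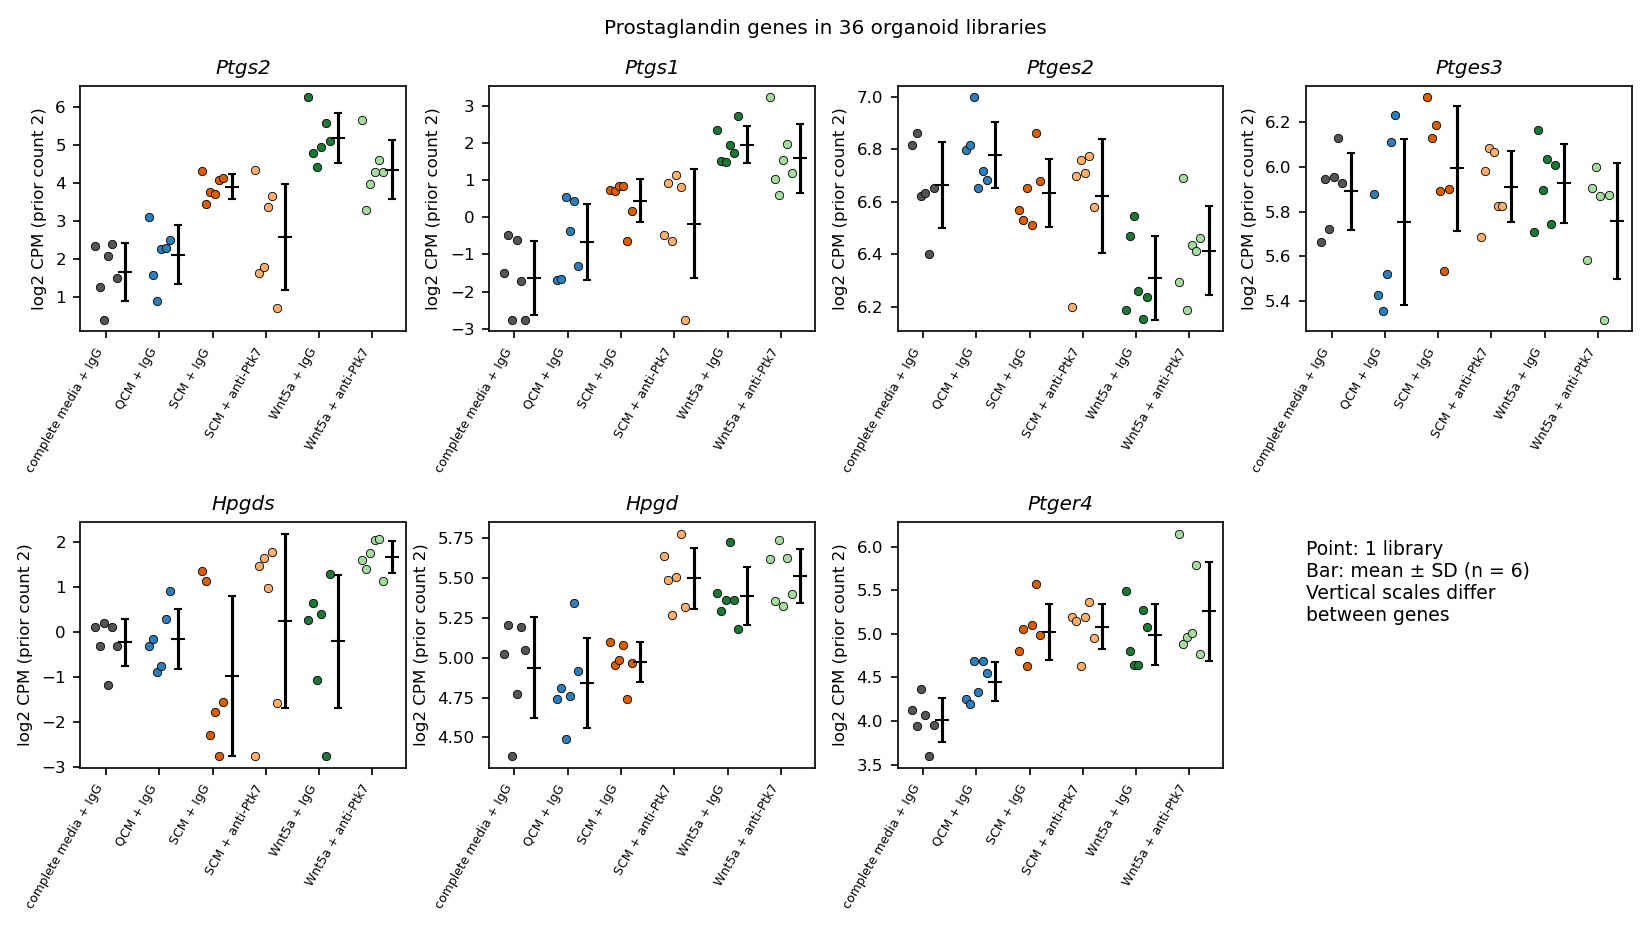
Level of each of the 7 detected members in the 36 libraries, as log2 CPM (vertical axis, a different scale for each gene) by treatment (horizontal axis). Each point is 1 library, and the bar beside it is the mean ± SD of 6 libraries. Ptgs2, Ptgs1 and Ptger4 sit higher in SCM + IgG and Wnt5a + IgG than in complete media + IgG, whereas Ptges3 overlaps across all 6 treatments.

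Ptgs2 (ENSMUSG00000032487, chr1:150100031-150108227, plus strand, GRCm38) encodes the inducible cyclooxygenase. In complete media + IgG its lowest, median and highest libraries were at 1.17, 3.38 and 5.06 CPM, and in QCM + IgG at 1.69, 4.70 and 8.51 CPM. In SCM + IgG they were at 10.7, 15.1 and 19.7 CPM, and in Wnt5a + IgG at 21.03, 32.4 and 76.1 CPM. The libraries of SCM + IgG all lay above those of both complete media and QCM, and those of Wnt5a + IgG all lay above those of SCM + IgG.

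Ptgs1 (ENSMUSG00000047250, chr2:36230426-36252272, plus strand), the cyclooxygenase usually regarded as constitutive, was close to its detection limit. Its lowest, median and highest libraries were at 0, 0.182 and 0.564 CPM in complete media + IgG, where the 6 libraries held 17 counts in all and 2 held none. They were at 0.165, 0.444 and 1.30 CPM in QCM + IgG and at 0.498, 1.49 and 1.65 CPM in SCM + IgG, which overlapped. In Wnt5a + IgG they were at 2.63, 3.43 and 6.39 CPM, above every library of the other 3 IgG groups. An uncharacterized transcript on the opposite strand, Gm43621, shares 148 bases of the coding sequence of Ptgs1, and reads from it could not be separated if strand was not used.

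Ptger4 (ENSMUSG00000039942, chr15:5206661-5244187, minus strand), the prostaglandin E2 receptor EP4, was at 11.9, 15.99 and 20.5 CPM in the lowest, median and highest libraries of complete media + IgG. The values were 18.2, 21.7 and 25.7 CPM in QCM + IgG, 24.7, 32.4 and 47.4 CPM in SCM + IgG, and 24.8, 30.8 and 44.9 CPM in Wnt5a + IgG. The libraries with SCM or Wnt5a were all above those of complete media, and their ranges nearly coincided with each other.

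These 3 genes were the only members called in the comparisons with complete media, and the sequence before their starts is printed here for that reason. The windows are from RefSeq (GRCm38.p6), which held one for all 8 members. Each line gives the 250 bases before the annotated start of transcription, 5′ to 3′ on the strand of the gene, at chr1:150099781-150100030 (plus) for Ptgs2, chr2:36230176-36230425 (plus) for Ptgs1 and chr15:5244188-5244437 (minus) for Ptger4.
Ptgs2: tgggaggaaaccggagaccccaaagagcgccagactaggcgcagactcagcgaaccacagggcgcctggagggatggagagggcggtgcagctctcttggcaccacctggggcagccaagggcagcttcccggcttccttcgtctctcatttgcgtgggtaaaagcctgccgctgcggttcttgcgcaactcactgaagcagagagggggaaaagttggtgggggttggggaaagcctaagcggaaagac
Ptgs1: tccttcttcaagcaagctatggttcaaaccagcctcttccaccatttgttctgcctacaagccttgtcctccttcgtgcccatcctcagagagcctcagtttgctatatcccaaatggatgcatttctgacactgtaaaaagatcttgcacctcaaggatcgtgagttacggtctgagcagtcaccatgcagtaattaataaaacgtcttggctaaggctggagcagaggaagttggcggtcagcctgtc
Ptger4: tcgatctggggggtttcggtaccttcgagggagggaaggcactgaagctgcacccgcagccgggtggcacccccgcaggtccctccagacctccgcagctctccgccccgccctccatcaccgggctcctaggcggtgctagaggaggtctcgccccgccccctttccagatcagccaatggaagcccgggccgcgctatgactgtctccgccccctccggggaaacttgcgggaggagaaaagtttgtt
The last line is a stretch of 30 bases just after the annotated start of Ptgs2, at chr1:150100034-150100063 on the plus strand, with its motif matches in capitals.
Ptgs2 after the start: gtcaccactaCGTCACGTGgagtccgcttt

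A set of 6 short motifs was searched on both strands of windows of 300 bases, from 250 before to 50 after the start. They were the cyclic AMP response element TGACGTCA and its shorter core CGTCA, which lies within it, the E-box CACGTG, the AP-1 site TGANTCA, the TEAD site GGAATG and the TATA box TATAAA. Ptgs2 held CGTCA from base 14 after the start and CACGTG from base 17, overlapping by 2 letters. Other members held motifs too, with CGTCA from base 12 in Ptges3, CACGTG at -77 in Ptges2, GGAATG on the opposite strand at -151 in Ptges and -146 in Ptges2, and TATAAA from base 5 in Hpgd. Among all 32851 windows of this length, 20.8% held CGTCA, 7.15% CACGTG, 14.7% GGAATG and 13.6% TATAAA. None of the 6 motifs was found in the windows of Ptgs1, Ptger4 and Hpgds. These matches describe letters in a window and are no evidence of binding.

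Conditioned medium of senescent fibroblasts was compared with complete media to ask which of these genes it moved in the epithelium. With edgeR's quasi-likelihood test and Benjamini-Hochberg adjustment over all genes, 3 of the 7 tested members were called higher and 0 lower, where a call needed both an adjusted p below 0.05 and a change of more than 1.5-fold. Over all genes 4.96% were called higher. Ptgs2 rose 4.49-fold (log2 fold change 2.17, SE 0.47, adjusted p = 0.00181). Ptger4 rose 2.05-fold (1.03, SE 0.20, adjusted p = 0.000617). Ptgs1 rose 5.33-fold (2.42, SE 0.69, adjusted p = 0.0184), a call that was lost without complete media + IgG replicate 3, at 2.15 and an adjusted p of 0.0518. Ptgs1 passed the filter on low counts through the other treatments, and had too few counts to be tested in a fit on these 2 groups alone. Ptgs2 and Ptger4 did not overlap between the groups, as was true in the higher direction for 3.76% of all genes.

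Wnt5a in complete media gave calls for the same 3 members, against 8.29% of all genes called higher. Ptgs1 rose 15.9-fold (log2 fold change 3.99, SE 0.69, adjusted p = 7.31e-05) and Ptgs2 11.7-fold (3.55, SE 0.48, adjusted p = 1.86e-06). Of these 2 groups Ptgs1 could pass the filter on low counts only through Wnt5a + IgG, where it was high, and its fold rests on the 17 counts of complete media. Ptger4 rose 2.01-fold (1.00, SE 0.20, adjusted p = 4.00e-04). None of the 3 overlapped with complete media, against 6.85% of all genes that lay wholly higher. The comparisons of QCM, SCM and Wnt5a use the same 6 complete media libraries, so their results are not independent of one another.

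In QCM, 0 of 7 members were called by edgeR's quasi-likelihood test, against 0.374% of all genes in either direction. Ptger4 was the 1 member at an unadjusted p under 0.05, with a log2 fold change of 0.44 (95% interval 0.03 to 0.85, adjusted p = 0.365 in edgeR). DESeq2 and voom with limma also called 0. The values for Ptgs2 (0.47, interval -0.51 to 1.44) and Ptgs1 (1.38, interval -0.08 to 2.84) had wide intervals. The interval of Ptgs1 takes in both 0 and the value of 2.42 seen in SCM.

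SCM against QCM compares the secretions of senescent and of quiescent fibroblasts directly. In edgeR 1 of 7 members was called, against 0.903% of all genes in either direction, and that was Ptgs2, at 3.25-fold (log2 fold change 1.70, SE 0.45, adjusted p = 0.0431). Its groups did not overlap, as for 1.09% of all genes in the higher direction. The call lay close to the threshold and was lost in 12 of the 36 fits that left out 1 library, namely QCM + IgG replicate 2, 3, 4 or 5, SCM + IgG replicate 1, 3, 4, 5 or 6, complete media + IgG replicate 6, Wnt5a + IgG replicate 6 or Wnt5a + anti-Ptk7 replicate 4. The log2 fold change then ran from 1.53 to 1.77 and the adjusted p from 0.0503 to 0.144. On all libraries DESeq2 and voom with limma, under either normalization, also called 1 member, Ptgs2. Ptger4 was 1.504-fold higher (0.59, SE 0.20), which did not pass at an adjusted p of 0.109 in edgeR.

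Between Wnt5a + IgG and SCM + IgG, 0 of 7 members were called by edgeR, against 0.69% of all genes, with 4 at an unadjusted p under 0.05. Ptgs1, Ptgs2 and Hpgd nevertheless did not overlap and were higher with Wnt5a, where 0.858% of all genes lay wholly higher. Ptgs2 had a log2 fold change of 1.38 (SE 0.43, adjusted p = 0.0696 in edgeR), and DESeq2 called it at an adjusted p of 0.0395. With voom and limma it was called at 0.0299 after quantile normalization and at 0.0316 with TMM. Ptgs1 differed by 1.58 (SE 0.58, adjusted p = 0.12 in edgeR), whereas Ptger4 differed by only -0.03 (95% interval -0.43 to 0.37).

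**Figure D2:**
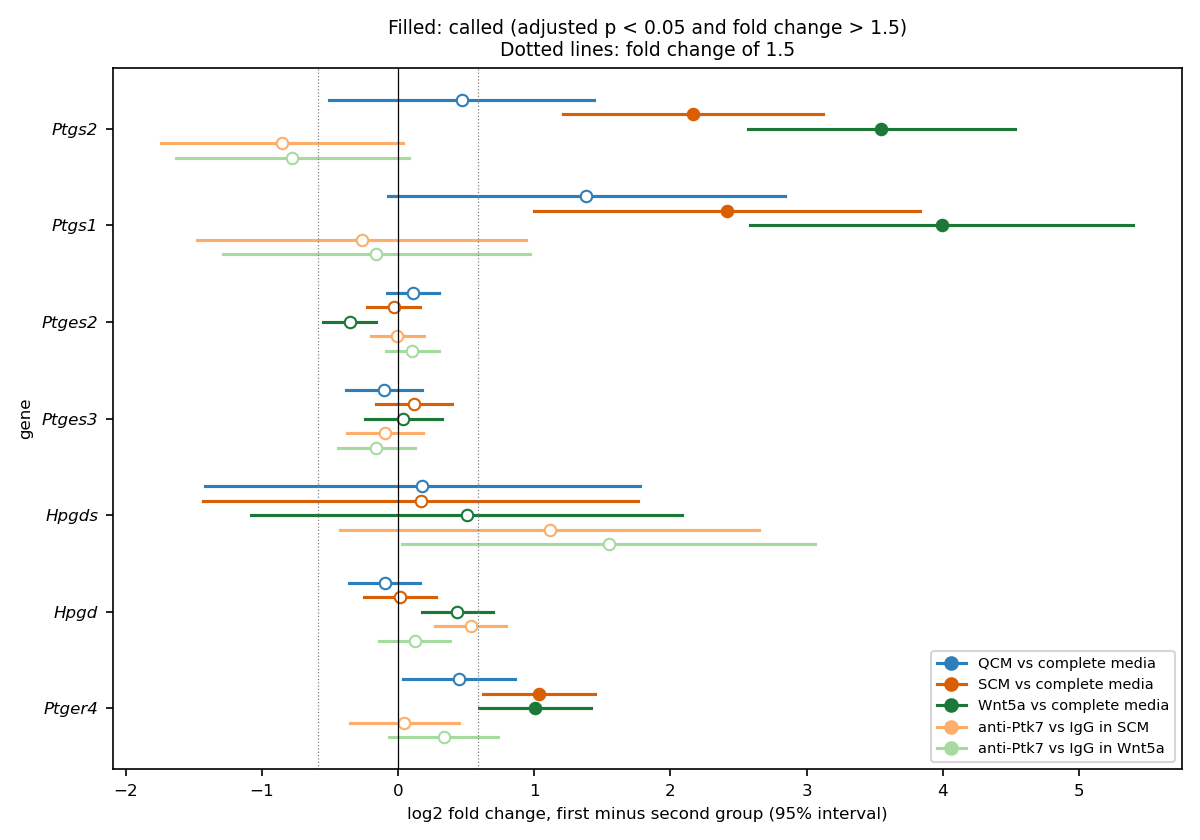
Log2 fold change of the 7 tested members (horizontal axis, with 95% intervals) in 5 comparisons, by gene (vertical axis). Filled points were called, and dotted lines mark a fold change of 1.5. The filled points are Ptgs2, Ptgs1 and Ptger4 in SCM and in Wnt5a against complete media, and no interval of Ptges2, Ptges3 or Hpgd reaches a doubling in these 5 comparisons.

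Tuft cells, the chemosensory cells of the gut epithelium, are a known site of cyclooxygenase expression, and some of their markers moved in the same comparison. Of 12 listed markers 6 had enough counts to be tested, and 3 were called higher in Wnt5a than in complete media by edgeR, against 8.29% of all genes. They were Avil, Trpm5 and Dclk1, with log2 fold changes of 2.35, 1.32 and 1.77. Pou2f3, the transcription factor that defines tuft cells, and Rgs13 were not called, at -0.14 and 0.07. The summed level of the 12 markers was 10.7 to 15.6 CPM in complete media + IgG, 10.9 to 17.04 CPM in SCM + IgG and 25.3 to 36.7 CPM in Wnt5a + IgG. In SCM 0 of the 6 were called by edgeR, with log2 fold changes from -0.36 (Rgs13) to 0.89 (Avil, adjusted p = 0.0565). Over the 36 libraries the Pearson correlation of log2 CPM with Avil was 0.78 for Ptgs2 and 0.73 for Ptgs1, and after removal of the group means it was 0.35 and 0.10. Correlations with Pou2f3 were -0.10 and -0.11, with Rgs13 -0.21 and 0.07, with Dclk1 0.59 and 0.49, and with Trpm5 0.56 and 0.58. The part of tuft cells in the cyclooxygenase values was not tested.

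Of 7 epithelial markers, 3 were called higher by edgeR in SCM, against 4.96% of all genes, and 4 in Wnt5a, against 8.29%. Krt8, Krt18 and Krt20 were called in both (log2 fold changes 1.08, 1.00 and 1.84 in SCM, 1.25, 1.22 and 2.26 in Wnt5a), and Cdh1 in Wnt5a (0.68, against 0.32 in SCM). Epcam (0.44 in SCM and 0.41 in Wnt5a), Vil1 (0.28 and 0.43) and Cldn7 (0.18 and 0.07) stayed under the cutoff. Their part in the values of the members was not tested.

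Of the 3 terminal prostaglandin E2 synthases, Ptges2 and Ptges3 were tested and gave 0 calls in any comparison by edgeR. Over all genes 4.96% were called higher in SCM and 8.29% in Wnt5a against complete media. Ptges2 (ENSMUSG00000026820, chr2:32395896-32405772, plus strand), the membrane-associated synthase 2, had a lowest, median and highest library of 84.4, 99.8 and 116 CPM in complete media + IgG and of 100, 108 and 128 CPM in QCM + IgG. The values were 91.1, 97.5 and 116 CPM in SCM + IgG, and 71.2, 75.9 and 93.2 CPM in Wnt5a + IgG. Wnt5a + IgG was the lowest group, with a log2 fold change of -0.35 from complete media (SE 0.10, adjusted p = 0.00639 in edgeR), short of the cutoff of 1.5-fold. The ranges of the 2 groups overlapped.

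Ptges3 (ENSMUSG00000071072, chr10:128058954-128077272, plus strand) encodes a cytosolic synthase that is also the Hsp90 co-chaperone p23. Group means lay between 54.7 ± 9.0 CPM (SD, n = 6) in Wnt5a + anti-Ptk7 and 64.5 ± 11.8 CPM in SCM + IgG, and all 6 ranges overlapped. Its log2 fold changes from complete media were 0.12 (95% interval -0.16 to 0.40) in SCM and 0.04 (-0.24 to 0.32) in Wnt5a, so a doubling lay outside both intervals.

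Ptges (ENSMUSG00000050737, chr2:30889471-30929863, minus strand), the inducible microsomal synthase often coupled to Ptgs2, was not detected. It had 77 counts over the 36 libraries, 0 in 22 of them, and a mean of 0.154 CPM. The highest library held 13 counts, in SCM + IgG. All 6 libraries of SCM + anti-Ptk7 were at 0, which allows up to 0.0378 CPM over the group, by 3 counts as the limit for counting error. The levels of the other groups, from 0.0412 to 0.285 CPM, were too low for a comparison.

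Hpgds (ENSMUSG00000029919, chr6:65117293-65144908, minus strand), the hematopoietic prostaglandin D2 synthase that tuft cells also use, was low and erratic. Its lowest, median and highest libraries were at 0.293, 0.800 and 1.00 CPM in complete media + IgG and at 0.391, 0.705 and 1.72 CPM in QCM + IgG. SCM + IgG reached from 0 through a median of 0.170 to 2.41 CPM, and Wnt5a + IgG from 0 through 1.12 to 2.32 CPM. With anti-Ptk7 the values were 0, 2.21 and 3.27 CPM in SCM and 2.06, 3.05 and 4.03 CPM in Wnt5a. Wnt5a + anti-Ptk7 was thus the only group in which every library was above 2 CPM.

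The change with anti-Ptk7 in Wnt5a was 2.92-fold for Hpgds (log2 fold change 1.55, 95% interval 0.03 to 3.06), and did not pass (unadjusted p = 0.0446, adjusted p = 0.315 in edgeR). In SCM it was 1.11 (95% interval -0.42 to 2.65, adjusted p = 0.475 in edgeR), and from 0.86 (without SCM + IgG replicate 3) to 1.80 (without SCM + IgG replicate 1) when 1 library was left out. Across the 36 libraries Hpgds was most like the tuft cell gene Rgs13 of the 5 markers compared (Pearson r 0.60, Spearman rho 0.69, and r 0.54 within groups). With the others Pearson r was lower, at 0.31 for Dclk1, 0.27 for Trpm5, 0.20 for Avil (-0.24 within groups) and 0.06 for Pou2f3.

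Hpgd (ENSMUSG00000031613, chr8:56294585-56321043, plus strand), the dehydrogenase that inactivates prostaglandins, was at 20.7, 32.7 and 36.8 CPM in the lowest, median and highest libraries of complete media + IgG. It was at 22.3, 27.4 and 40.4 CPM in QCM + IgG, at 26.6, 31.3 and 34.1 CPM in SCM + IgG, and at 36.1, 41.0 and 52.6 CPM in Wnt5a + IgG. With anti-Ptk7 the values were 38.4, 45.0 and 54.7 CPM in SCM and 40.0, 45.5 and 53.1 CPM in Wnt5a. SCM + IgG stood with the control media, while both anti-Ptk7 groups and Wnt5a + IgG stood above it without overlap.

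Wnt5a against complete media gave a log2 fold change of 0.44 for Hpgd (SE 0.13, adjusted p = 0.0122 in edgeR), under the cutoff of 1.5-fold. SCM against complete media gave 0.01 (95% interval -0.25 to 0.28).

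The antibody against Ptk7 was compared with IgG within SCM and within Wnt5a, to ask which changes depended on Ptk7. By edgeR's quasi-likelihood test 0 of 7 members were called in either, against 1.23% of all genes in SCM and 0.884% in Wnt5a. One member in each was at an unadjusted p under 0.05, Hpgd in SCM and Hpgds in Wnt5a. DESeq2 called 0 in both, as did voom with limma under either normalization. Adding the replicate number to the edgeR model changed this for Ptgs2, which was then called lower in both media, as described below.

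Hpgd with anti-Ptk7 in SCM was 1.45-fold higher (log2 fold change 0.53, SE 0.13, adjusted p = 0.0170 in edgeR), just short of the cutoff of 1.5-fold. Its groups did not overlap, as for 0.736% of all genes in the higher direction. In Wnt5a the antibody gave 0.12 for Hpgd (SE 0.13, adjusted p = 0.729 in edgeR). The difference between these effects, tested as an interaction, was -0.41 (95% interval -0.78 to -0.05, unadjusted p = 0.0272), and its adjusted p was 0.999 in edgeR, so it did not pass.

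Ptgs2 was lower on average with anti-Ptk7 in both media, without passing the test in the model of group means alone. In SCM its lowest, median and highest libraries were at 1.49, 6.68 and 19.9 CPM with anti-Ptk7, against 10.7, 15.1 and 19.7 CPM with IgG. The libraries with the antibody ran from the level of complete media to the top of SCM + IgG, and their SD on the log2 scale was 1.40 against 0.32. The log2 fold change was -0.85 (95% interval -1.74 to 0.04, adjusted p = 0.314 in edgeR). In Wnt5a the libraries were at 9.68, 19.3 and 49.9 CPM with anti-Ptk7, a log2 fold change of -0.78 (95% interval -1.63 to 0.08, adjusted p = 0.394 in edgeR). With the replicate number as a block Ptgs2 passed in both media, at -1.15 in SCM (adjusted p = 0.00611 in edgeR) and -0.82 in Wnt5a (0.0492). No source ties a replicate number to a mouse.

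Ptgs1 and Ptger4 were not called with anti-Ptk7. Ptgs1 was at 0, 1.08 and 2.05 CPM in the lowest, median and highest libraries of SCM + anti-Ptk7 and at 1.35, 2.43 and 9.20 CPM in Wnt5a + anti-Ptk7. Ptger4 was at 24.6, 35.9 and 41.2 CPM in SCM + anti-Ptk7 and at 27.002, 31.6 and 70.8 CPM in Wnt5a + anti-Ptk7, which overlapped with IgG in both media. Log2 fold changes were -0.27 (95% interval -1.47 to 0.94) and -0.16 (-1.29 to 0.97) for Ptgs1. They were 0.05 (-0.35 to 0.45) and 0.33 (-0.07 to 0.73) for Ptger4, in SCM and Wnt5a respectively.

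The interaction called 0 of 15497 genes in edgeR, with 602 at an unadjusted p under 0.05, and 0 in DESeq2 and in voom with limma. For the members it ran from -0.41 (Hpgd) to 0.43 (Hpgds).

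The transcripts of Ptgs2 and Hpgd were also compared within each library, per kilobase of coding sequence, as a ratio of RNA levels that does not measure enzymes or prostaglandins. The log2 ratio was -4.52 ± 0.66 (SD, n = 6) in complete media + IgG and -3.96 ± 0.74 in QCM + IgG. It was -2.24 ± 0.35 in SCM + IgG and -1.38 ± 0.68 in Wnt5a + IgG. With anti-Ptk7 it was -4.14 ± 1.30 in SCM and -2.33 ± 0.73 in Wnt5a. Hpgd was the more abundant of the pair in all 36 libraries, since 0 had a ratio above 0, and the ratio in SCM + anti-Ptk7 ran from -5.90 to -2.48, a range that takes in the means of both control media.

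**Figure D3:**
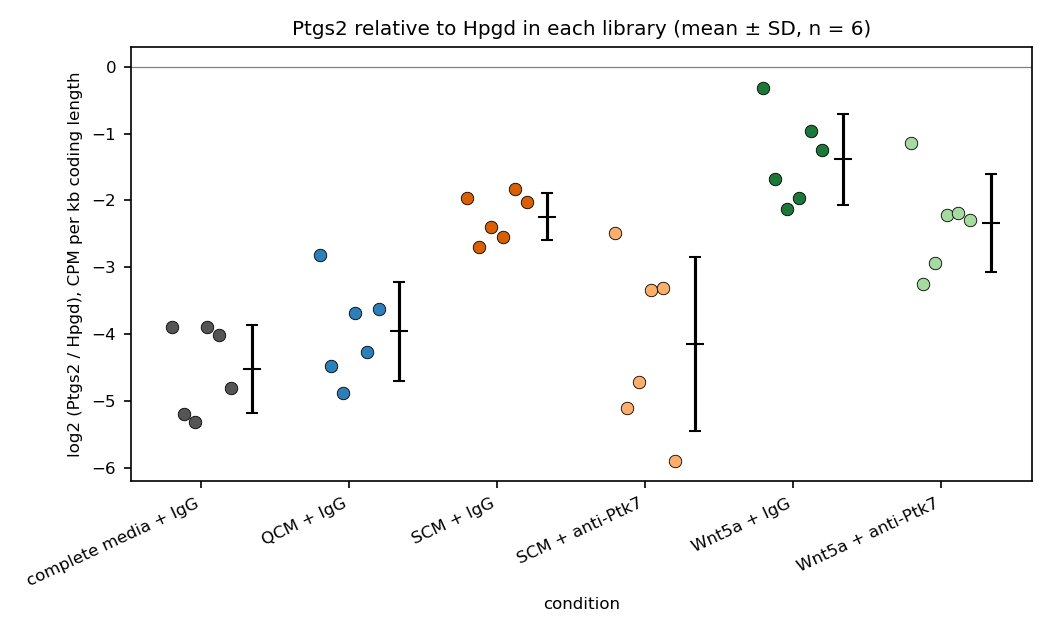
Log2 ratio of Ptgs2 to Hpgd, both as CPM per kilobase of coding sequence (vertical axis), in each library by treatment (horizontal axis). Points are libraries, bars are the mean ± SD of 6, and the line at 0 marks equal levels. All points lie below that line, and the 6 of SCM + IgG, from -2.70 to -1.84, lie above the 6 of complete media + IgG, from -5.31 to -3.89.

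Ordered by mean log2 CPM, complete media + IgG was the lowest and QCM + IgG the next for Ptgs1, Ptgs2 and Ptger4. Wnt5a + IgG was the highest group for both cyclooxygenases, and Wnt5a + anti-Ptk7 for Ptger4, Hpgd and Hpgds. For Ptger4 that place leaned on replicate 1 at 70.8 CPM, and by the median SCM + anti-Ptk7 was higher (35.9 against 31.6 CPM). The whole order of groups was the same for 6 of 7 members with a prior count of 0.5 and for 3 of 7 with library size alone. Of 35 pairs of neighbours in these orders, 0 reached an adjusted p under 0.05 in two-sided exact permutation tests of 6 against 6 libraries. The pairs were chosen by the same means that were tested, so these tests do not judge the orders. The smallest p that this test allows is 0.00216, which for a single pair among 35 gives an adjusted p of 0.0758, so that no lone pair could pass. The step of Hpgd from SCM + IgG to Wnt5a + IgG reached that limit, with ranges that did not overlap. The next smallest were those of Ptger4 from complete media to QCM (exact p = 0.0108, adjusted 0.114) and from QCM to Wnt5a + IgG (exact p = 0.013, adjusted 0.114), beside Ptgs1 from SCM + IgG to Wnt5a + anti-Ptk7 (exact p = 0.013, adjusted 0.114). In the other 34 pairs the ranges overlapped.

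Among the other genes of the pathway, phospholipases A2, which release arachidonic acid, gave 0 calls among 10 tested of 14 listed in SCM, Wnt5a and both anti-Ptk7 comparisons. The shares of all genes called higher by edgeR were 4.96% for SCM and 8.29% for Wnt5a against complete media. For the antibody, calls in either direction made up 1.23% of all genes within SCM and 0.884% within Wnt5a. At such shares 0 calls among 10 genes do not set this list apart. The median log2 fold change of the phospholipases was 0.12 in SCM and -0.04 in Wnt5a, beside 0.01 over all genes in both. With anti-Ptk7 it was 0.016 in SCM and 0.25 in Wnt5a, beside 0.0017 and 0.0067 over all genes. The summed level of the 14 stayed between 262 and 366 CPM in all 36 libraries. 

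Of 5 other prostanoid synthases 3 were tested, and their levels were 36.7 to 66.0 CPM for Prxl2b (prostamide and prostaglandin F synthase), 10.01 to 11.8 CPM for Akr1b3 (an aldo-keto reductase that can make prostaglandin F2α) and 1.06 to 1.98 CPM for Tbxas1 (thromboxane synthase), as ranges of group means. Prxl2b was at 57.1, 61.8 and 76.7 CPM in the lowest, median and highest libraries of SCM + IgG, and at 31.7, 39.9 and 46.8 CPM in SCM + anti-Ptk7. The groups did not overlap, which in the lower direction was true of 0.994% of all genes. Prxl2b fell 1.59-fold (log2 fold change -0.67, SE 0.11, adjusted p = 0.000968 in edgeR), and 0.645% of all genes were called lower. With anti-Ptk7 in Wnt5a its log2 fold change was -0.44 (SE 0.11, adjusted p = 0.0292 in edgeR), under the cutoff.

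Of 8 other prostanoid receptors 3 were tested and 0 called in any comparison by edgeR, against 4.96% of all genes called higher in SCM and 8.29% in Wnt5a. Ptger1, the receptor EP1 that acts through calcium, was detected at group means from 42.3 to 51.0 CPM, and its log2 fold change from complete media was 0.02 in SCM (95% interval -0.18 to 0.23) and 0.00 in Wnt5a (-0.21 to 0.21). Ptger3, the inhibitory receptor EP3, had group means from 0.245 to 0.476 CPM. Ptger2 (EP2) and Ptgfr (the prostaglandin F receptor) had 0 counts in all 36 libraries. The third gene tested was Ptgdr2, a prostaglandin D2 receptor. Of the prostaglandin E2 receptors detected, Ptger4 and Ptger1, it was Ptger4 that was called in SCM and Wnt5a, and the difference between the 2 genes was not tested.

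Transport and breakdown genes other than Hpgd gave 0 calls among 6 in SCM and in Wnt5a by edgeR, against 4.96% and 8.29% of all genes called higher. Slco2a1, the prostaglandin transporter, had means of 3.99 CPM in complete media + IgG and 9.21 CPM in Wnt5a + IgG, with a log2 fold change of 1.20 (SE 0.48, adjusted p = 0.0698 in edgeR), and DESeq2 called it at 1.21 (adjusted p = 0.0403). Its libraries in Wnt5a + IgG reached from 3.78 to 24.001 CPM and overlapped with complete media. Lipoxygenase and leukotriene genes, the other outlet of arachidonic acid, gave 0 calls among 4 tested of 11 by edgeR, against the same shares of all genes. Alox12, at means of 0.0676 CPM in complete media + IgG and 0.884 CPM in Wnt5a + IgG (log2 fold change 3.48, adjusted p = 0.0657), was called there without complete media + IgG replicate 5 (5.08, adjusted p = 0.0354) or Wnt5a + IgG replicate 4 (3.74, 0.0462). Its complete media + IgG libraries held 5 counts in all, and 4 of them held none. Alox12 thus passed the filter on low counts through other treatments, and its fold rests on those few counts.

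Genes that cyclic AMP is known to induce were read because Ptger4 raises cyclic AMP, and 9 of 10 were tested. In SCM 2 of the 9 were called higher, against 4.96% of all genes, and 0 lower, with a median log2 fold change over the 9 of 0.15. In Wnt5a again 2 were called higher, against 8.29% of all genes, and 0 lower, with a median of 0.38. They were Fos and Areg in both. Fos, an immediate early gene, had log2 fold changes of 1.65 in SCM (SE 0.35, adjusted p = 0.00157 in edgeR) and 1.83 in Wnt5a (SE 0.35, adjusted p = 0.000263). Areg, a ligand of the EGF receptor, had 1.14 in SCM (SE 0.31, adjusted p = 0.0132) and 1.31 in Wnt5a (SE 0.31, adjusted p = 0.00231), and its call in SCM was lost without SCM + IgG replicate 1, at 0.996 and an adjusted p of 0.0509. Both genes also answer to other signals, and the remaining 7 genes of the list gave no call in these comparisons. Per1, a clock gene among them, was called lower in SCM without complete media + IgG replicate 2 (-0.66, adjusted p = 0.0179 in edgeR) or SCM + IgG replicate 3 (-0.64, 0.0348).

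The other call in this list was Nr4a2, a nuclear receptor, with anti-Ptk7 in SCM. It was at 15.9, 18.6 and 20.1 CPM in the lowest, median and highest libraries of SCM + IgG and at 10.7, 11.6 and 13.5 CPM in SCM + anti-Ptk7. It fell 1.52-fold (log2 fold change -0.60, SE 0.14, adjusted p = 0.0150 in edgeR), a value at the cutoff. Without SCM + IgG replicate 1 it was -0.57 and without SCM + anti-Ptk7 replicate 1 also -0.57, under the cutoff in each case.

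**Figure D4:**
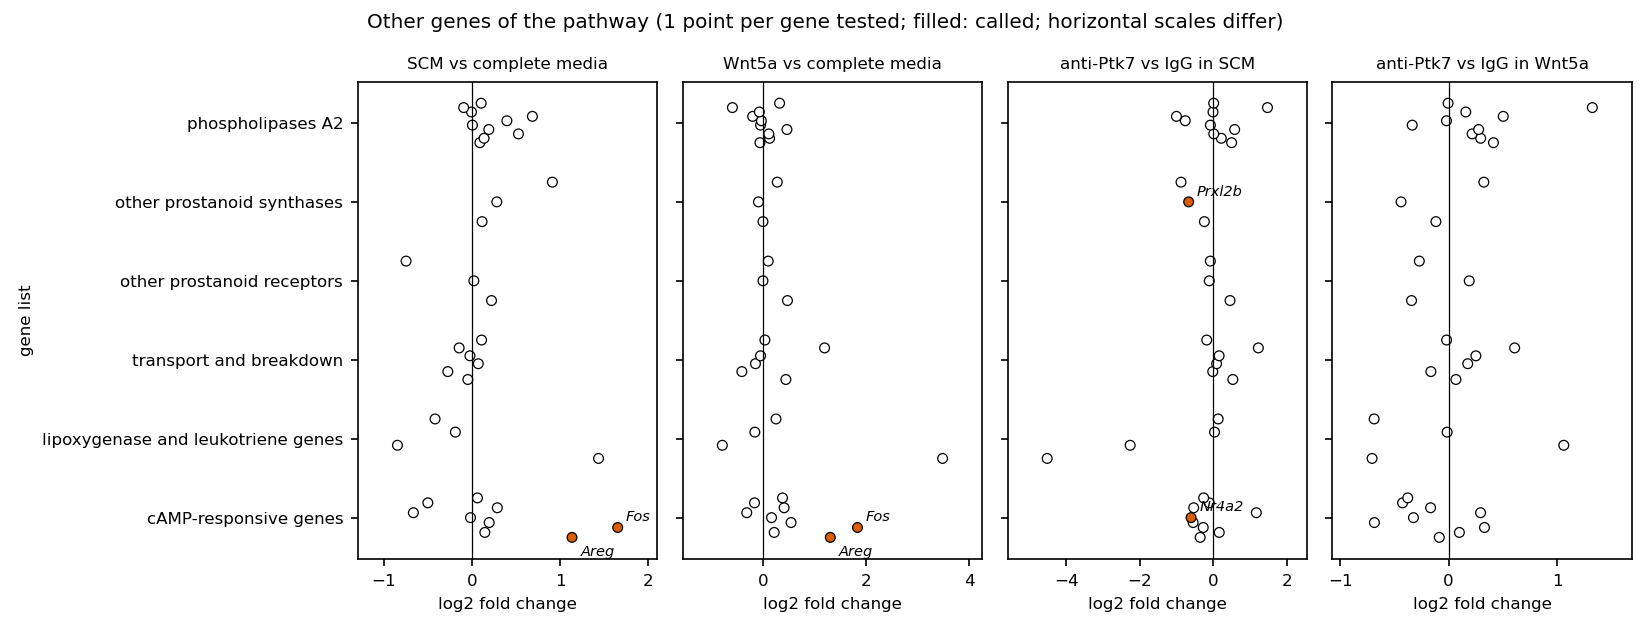
Log2 fold change (horizontal axis, a different scale in each panel) of the tested genes of 6 other lists (vertical axis) in 4 comparisons, with 1 point per gene and called genes filled and named. Fos and Areg are filled in SCM and Wnt5a against complete media, Prxl2b and Nr4a2 lie left of 0 with anti-Ptk7 in SCM, and 0 points are filled with anti-Ptk7 in Wnt5a.

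Over the 36 libraries, which share treatments, Ptgs1 and Ptgs2 had a Pearson correlation of log2 CPM of 0.79, and of 0.37 after the group means were removed. Ptger4 correlated with Ptgs2 at 0.63 and at 0.36 within groups. Ptges2 ran opposite to Ptgs2, at -0.70 and -0.43 within groups, and Hpgd ran with Ptgs2 at 0.52 and 0.45. These are descriptions over libraries of 6 treatments, not tests.

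The genes most like each called member over the same 36 libraries were found by Pearson correlation among all genes tested. For Ptgs2 they were Tnfrsf23 (r 0.94, Spearman rho 0.95, r 0.79 within groups), Cav2 (r 0.93, rho 0.93, 0.77 within groups) and Far1 (r 0.93, rho 0.93, 0.84 within groups). For Ptgs1 they were Trpm6 (r 0.85, rho 0.85, 0.67 within groups), Ypel5 (r 0.82) and Ggh (r 0.81). For Ptger4 they were Epcam (r 0.91, rho 0.88, 0.79 within groups), Plin2 (r 0.88) and Bhlhe40 (r 0.87). The match of Ptgs2 held largely within treatments, whereas Ypel5 and Ggh followed Ptgs1 within treatments at only 0.44 and 0.43.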

How the data were processed

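RNA of 36 organoid cultures was sequenced from amplified cDNA as single-end reads. Alignment by the authors used GSNAP, run through HTSeqGenie, on build mm10. They counted reads within coding sequences, and deposited whole-number counts per gene and library without normalization. The gene annotation and the use of strand are not given in the sources used here. Names and positions were taken from GENCODE for GRCm38, which gave no symbol for 147 identifiers.

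The statistics were computed in R 4.3.3 (DESeq2 1.42.0, limma 3.58.1, edgeR 4.0.16). Low genes were removed with filterByExpr, libraries scaled by TMM, and edgeR's quasi-likelihood test was applied in 1 model of 6 group means with Benjamini-Hochberg adjustment over 15497 genes. Calls needed both an adjusted p below 0.05 and a change of more than 1.5-fold. The study's own method, voom with limma on quantile-normalized values, was an alternative. Log2 CPM used a prior count of 2. Replicate pairs differed beyond sampling noise (lowest chi-square per gene 7.28 over 90 pairs), so each library counted once. The rule for named genes took the 8 members, called genes of the pathway lists, detected synthases and receptors, and for each called member the 3 genes most correlated with it. Slco2a1, Per1, Alox12, receptors that were not detected and the markers of cell types were named outside it, after their values were seen. Members and lists were chosen with earlier results of these data known.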

Additional observations from a re-analysis of the deposited data

Results flagged for a closer look

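Within each treatment of 6 libraries, the gap of the highest and of the lowest library to its neighbour was set against the range of the group on the log2 scale, for 42 combinations of 7 members and 6 treatments. Of these 2 passed Dixon's 95% limit for 6 samples, about as many as chance gives, since it flags about 1 in 20 groups. Ptges2 was at 73.5 CPM in SCM + anti-Ptk7 replicate 1, where the other 5 libraries ran from 95.5 to 109 CPM. Hpgds was at 0.293 CPM in complete media + IgG replicate 4, where the others ran from 0.658 to 1.00 CPM. Neither gene was called in a comparison with these groups.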

How the results depend on the processing

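Over 56 log2 fold changes of members and 2556 alternatives to them, 2461 kept direction and side of the threshold, 13 lost a call, 14 gained one and 68 changed sign, while 0 called values changed sign. The cause of these changes was not tested. Ptgs1 and Hpgds had too few counts to be tested with at least 10 counts in every library, and, for QCM and for SCM against complete media, on only the groups compared.

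For Wnt5a against SCM, where 0 members were called, DESeq2, voom with limma (quantile or TMM) and a replicate block each called 1, Ptgs2, and the fit on only the groups compared called 2, adding Ptgs1. For SCM against QCM that last fit called 2, adding Ptger4 (adjusted p = 0.0468 in edgeR). Without a fold change cutoff 5 members passed in Wnt5a (adding Ptges2 and Hpgd) and 1, Hpgd, with anti-Ptk7 in SCM. Pathway genes without the cutoff numbered 4 in SCM and 4 in Wnt5a, each against 2, and 1 with anti-Ptk7 in Wnt5a, Prxl2b, against 0. DESeq2 called 1, Slco2a1, for Wnt5a against SCM, against 0. With library size alone 1 pathway gene was called with anti-Ptk7 in SCM, against 2, without Nr4a2.

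Leaving out 1 library gave 2 to 3 members called in SCM against complete media, 0 to 1 in SCM against QCM and 0 to 1 in Wnt5a against SCM, where Ptgs2 was gained without SCM + anti-Ptk7 replicate 1 (adjusted p = 0.0454 in edgeR) or Wnt5a + anti-Ptk7 replicate 1 (0.0426). Pathway genes called ran from 1 to 4 in SCM against complete media (4 without complete media + IgG replicate 2 or SCM + IgG replicate 3, and 1, with Areg lost, without SCM + IgG replicate 1), from 2 to 3 in Wnt5a, from 0 to 1 in Wnt5a against SCM (without SCM + IgG replicate 5) and from 1 to 3 with anti-Ptk7 in SCM (3 without SCM + IgG replicate 5).

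The replicate numbers are shared between treatments, but no source ties a number to a mouse. Libraries of 1 number deviated together more than those of different numbers, with mean correlations of 0.0920 over 90 pairs and -0.0180. The 90 ran from -0.0442 to 0.450, with 34 over 0.1. Of the 36 libraries 16 were closest to their own number among the 6. With the number as a replicate block, Ptgs2 was the 1 member called with anti-Ptk7 both in SCM (log2 fold change -1.15, adjusted p = 0.00611 in edgeR) and in Wnt5a (-0.82, 0.0492), against 0 without it. Its log2 CPM was lower with anti-Ptk7 in 5 of 6 numbers in SCM and in 6 of 6 in Wnt5a. The block also gave 1 pathway gene in QCM (Fos) and 2 in SCM against QCM (Areg and Fos), against 0. Over all genes it called 178 in QCM against 58, 496 against 140 in SCM against QCM, 259 against 107 in Wnt5a against SCM, 399 against 190 with anti-Ptk7 in SCM and 255 against 137 in Wnt5a. DESeq2 called 264 and the fit on only the groups compared 265 in SCM against QCM, DESeq2 295 with anti-Ptk7 in SCM, and the fit on only the groups compared 51 in Wnt5a against SCM and 86 with anti-Ptk7 in SCM. Without a fold change cutoff all genes called were 102 in QCM, 1842 in SCM, 3386 in Wnt5a, 267 in SCM against QCM, 436 in Wnt5a against SCM, and 422 and 398 with anti-Ptk7 in SCM and in Wnt5a. For the interaction the block called 3 genes against 0.

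Changes of sign were among uncalled values. For Hpgds they were -0.0123 in QCM, -1.31 in SCM and -0.24 in Wnt5a with quantile normalization, -1.07 in SCM and -0.0664 in Wnt5a with voom and TMM, -0.0400 in SCM with the replicate block, and 0.00513 in SCM against QCM on only the groups compared. With library size alone Hpgd was -0.0117 in SCM, Ptges3 -0.00378 in Wnt5a and Ptges2 0.0199 with anti-Ptk7 in SCM, where Ptges2 was 0.00338 with quantile normalization and 0.000748 with upper-quartile scaling. Leaving out 1 library, Hpgds ran from -0.18 to 0.31 in QCM, -0.54 to 0.42 in SCM, -0.69 to 0.35 in SCM against QCM, -0.0445 to 1.04 in Wnt5a against SCM and -0.26 to 0.81 in the interaction. Hpgd ran from -0.0909 to 0.0712 in SCM, Ptger4 from -0.0276 to 0.18 with anti-Ptk7 in SCM and from -0.14 to 0.10 in Wnt5a against SCM, and Ptges2 from -0.0443 to 0.0676 with anti-Ptk7 in SCM. Ptges3 ran from -0.0138 to 0.11 in Wnt5a and -0.14 to 0.0149 in the interaction, Ptgs1 from -0.72 to 0.0393 with anti-Ptk7 in Wnt5a and -0.46 to 0.39 in the interaction, and Ptgs2 from -0.31 to 0.55 in the interaction. Depth limits Ptgs1, Hpgds and Ptges most, which held from 0 to 102 counts per library.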
